A study of Mus musculus with 2 samples.

Results

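The genes described here are 10 genes of hepcidin and iron control, Hamp, Hamp2, Tfr2, Tfrc, Hfe, Bmp6, Id1, Smad7, Slc40a1 and Trf. They were listed by name under a rule with no threshold on a measured value, though earlier results of these data were known, and all 10 were found among the 19073 features counted in both libraries. Hamp was highest in the middle of a zonation order set over both libraries (in Tom+ not when the order was cut inside the library). Bmp6 was at its highest level among the named classes in endothelial-like cells. Of the 8 members at 10 CPM or more (a level defined below), 0 differed by 1.25-fold between Tom+ and Tom- hepatocytes. Of all genes at that level, 9.33% did. The count was 1 (Hamp) without clusters of at least 90% Tom+ cells. Below 10 CPM, Bmp6 was past 1.25-fold, lower in Tom+ at a log2 ratio of -0.47 (-0.66 to -0.28), and Hamp2 was not.

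Hepcidin, the peptide made from Hamp, is released by hepatocytes and removes the iron exporter ferroportin (Slc40a1) from cell surfaces, so that iron stays inside macrophages, gut cells and hepatocytes. Its transcription is driven by bone morphogenetic protein (BMP) ligands of the liver sinusoid, chiefly BMP6 and BMP2, which act through BMP receptors and SMAD proteins on hepatocytes. Transferrin receptor 2 and HFE sense iron bound to transferrin and feed into that pathway, and an inflammatory arm reaches the Hamp promoter through STAT3.

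The livers came from male p16-Tom mice on a C57BL/6 background, heterozygous for p16-CreERT2 and R26-CAG-LSL-tdTomato-WPRE, given carbon tetrachloride (CCl4) for 4 weeks together with tamoxifen. Tamoxifen switches on tdTomato for good in any cell type in which the p16 promoter drives the Cre at that time, and the sorted Tom- and Tom+ fractions (labelled p16low and p16high hepatocytes) gave 1 library each. CCl4 and tamoxifen are shared by both groups, no untreated library was analysed here, and neither the number of mice behind a library nor their age is stated. With 1 library a group there is no test between Tom+ and Tom-: every interval below is a 95% interval of counting error alone, and it covers neither the spread between cells nor that between mice.

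The deposited tables hold 23220 barcodes for Tom- and 16339 for Tom+, of which 20159 and 13378 were kept, with medians of 26694 and 36075 unique molecules (UMIs). The libraries share 503 barcodes, 372 of them among kept cells, and without those cells the middle ratio of Hamp described below was 0.28 and 0.22 in Tom- and Tom+, its Tom+ over Tom- log2 ratio -0.18, and the endothelial excess of Bmp6 3.71 and 3.99 on the log2 scale, each inside the interval given below. Hepatocytes were the 10786 Tom- and 9920 Tom+ cells of the 7 clusters, of 19, that stayed after clusters with markers of other liver cells or few genes were left out. The largest cluster left out, of few genes, held 4195 Tom- and 392 Tom+ cells, 20.8% and 2.93% of kept cells. Their medians were 13518 and 31722 UMIs. Clustered again by themselves, the hepatocytes still held a cluster of 390 Tom- and 533 Tom+ cells led by Col1a2, Col1a1 and Col3a1, with Cd5l, C1qa and Clec4f, and another of 27 and 9 led by collagen genes, and these cells were kept. Levels are given as CPM, the summed UMIs of a gene scaled to a common library total. In hepatocytes tdTomato was at 73.0 CPM in Tom- and 813 in Tom+, the direction of the labels. Albumin made up 82778 to 148055 CPM in each of the 19 clusters, non-hepatocyte clusters included, so every named class also carries hepatocyte RNA. The sum of 15 endothelial markers was at 103 and 81.9 CPM in Tom- and Tom+ hepatocytes, that of 11 Kupffer cell markers at 238 and 203, and that of 12 stellate and fibroblast markers at 72.5 and 78.0. Probes read short targets of each transcript, so levels are compared between cells and not between genes.

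The promoters of the hepcidin pair are shown because this stretch holds the BMP-responsive and STAT elements known from the hepcidin promoter, and because the genes, near copies of each other, differ in the first of them. Hamp lies on the minus strand of chromosome 7 at 30942368 to 30944032 (GRCm38, GENCODE vM21) and Hamp2 on the same strand at 30922372 to 30924681, 17686 bases away. The stretches below are from RefSeq (GRCm38.p6), 81 bases each, and end 69 and 66 bases before the RefSeq start of Hamp and Hamp2. Both lie in an intron of Gm44662, a non-coding gene annotated on the opposite strand, and that of Hamp2 also in an intron of a longer annotated Hamp2 transcript. Capitals mark GGCGCC, the core of the BMP-responsive element, and TTCTTGGAA, a STAT site, with the aligned letters in Hamp2.
Hamp, chr7:30944098-30944178, minus strand: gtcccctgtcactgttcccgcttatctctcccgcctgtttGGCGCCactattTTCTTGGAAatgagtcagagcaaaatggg
Hamp2, chr7:30924247-30924327, minus strand: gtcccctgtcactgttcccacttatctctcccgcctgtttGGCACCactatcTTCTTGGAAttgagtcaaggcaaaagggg
The windows were identical at 74 of 81 bases. Counted from 1 at the 5′ end of the first motif, with the base of Hamp first, the difference in the BMP element was G4A, and the STAT site held no difference. Over the 250 bases before the start, GGCGCC (its own reverse complement) was found in 9.54% of 27025 RefSeq promoters, TTCTTGGAA on either strand in 0.370%, and both together in 3 promoters. These motifs do not overlap each other. Promoters were matched for 6 of the 10 members. Besides Hamp, Tfrc held GGCGCC, and besides the hepcidin pair none of those matched held TTCTTGGAA. The longest coding transcripts of Hamp and Hamp2 were 88.8% identical, with a run of 87 identical bases, so probes of the pair may share reads and Hamp2 counts are uncertain to that extent.

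Hamp was highest in the middle of the lobule order. Hepatocytes were ordered by a zonation score, the mean of 13 periportal genes less the mean of 16 pericentral ones, none of them a member, and cut into 9 bins of equal cell number over both libraries. Bin 1 is the pericentral end and bin 9 the periportal end. In the Tom- library Hamp was at 93.2, 89.1 and 65.6 CPM in bins 1 to 3, at 87.6, 138 and 189 in bins 4 to 6, and at 163, 123 and 82.4 in bins 7 to 9. In the Tom+ library the same bins held 128, 101 and 84.3, then 90.4, 132 and 160, then 119, 92.6 and 61.1. Both libraries peaked in bin 6. A second, smaller maximum lay in bin 1, next to the central vein, with a trough in bin 3. Genes listed as mid-lobular references were mixed on this order. In both libraries Cyp8b1 peaked in bin 6, Igfbp2, which the paper uses with Hamp to mark zone 2, in bin 4, and Mup3 in bin 9.

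The middle bins 4 to 6 together held 145 CPM of Hamp in Tom-, against 80.3 in the pericentral and 120 in the periportal bins. Over the higher of those ends the log2 ratio was 0.28 (0.25 to 0.31). In Tom+ the values were 122, 106 and 93.8, a log2 ratio of 0.21 (0.18 to 0.24). Ranked by the lower of both ratios, Hamp was number 18 of 7832 genes measured at 10 CPM or more. Of those genes, 11 (0.14%) passed 1.25-fold over both ends in both libraries, and of the 8 members among them 0 did. Hamp did pass it in some alternatives, for which the share of all genes is not given. Its log2 ratios were 0.38 in Tom- and 0.48 in Tom+ without clusters of at least 90% Tom+ cells. They were 0.62 and 0.47 in cells below the median of non-hepatocyte content (chosen after seeing the data). With clusters of few genes kept, Hamp did not pass it, at 0.10 in Tom- and 0.30 in Tom+. Between single bins the range of Hamp in the main setting was wider, 2.88-fold in Tom- and 2.62-fold in Tom+. That made Hamp the 1 member of the 8 past 2-fold in both libraries, against 7.25% of all genes measured. With bins of equal size set inside each library, the middle ratio was 0.72 in Tom- and -0.29 in Tom+. The mid-lobular excess of the Tom+ library thus depends on where the bins are set. Such bins cover other stretches of the score, since 49.1% of Tom+ but 18.8% of Tom- hepatocytes lay in the shared bins 1 to 3.

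**Figure D1:**
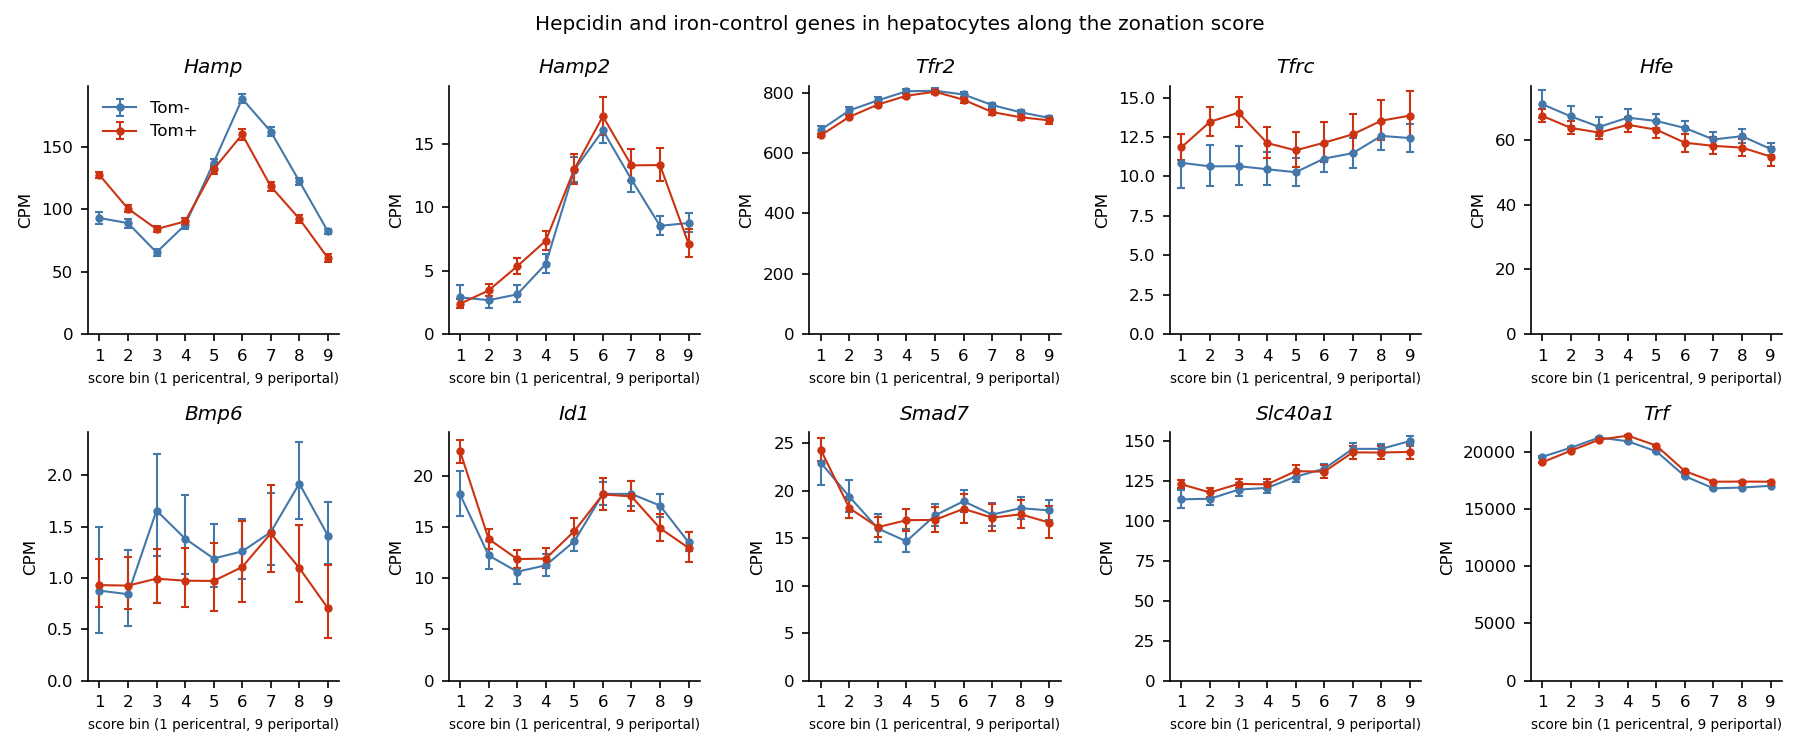
Level of each member in CPM (y axes from 0) over the 9 zonation score bins from pericentral to periportal, for Tom- (blue) and Tom+ (red) hepatocytes; bars are exact Poisson 95% intervals. Hamp and Hamp2 peak in bin 6 in both libraries, Tfr2 in bin 5, while Slc40a1 is highest and Hfe lowest in bin 9.

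Per cell, Hamp counts were low. In the middle bins of Tom-, the median cell was at 71.1 CPM, the 90th percentile at 387, and 20.6% of cells had no Hamp UMI. In the middle bins of Tom+ the median was 55.5, the 90th percentile 341, and 24.6% had none. Thinned to 5000 UMIs a cell, 34.7% of Tom- hepatocytes had a Hamp UMI (76.4% before thinning). The endothelial-like cells of that library, which should lack the gene, gave 34.5%, with median depths of 32281 and 36552 UMIs. The share of cells with a UMI thus does not set Hamp-making cells apart here, and the bins were compared by level alone.

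Hamp2, the neighbouring copy of the hepcidin gene, was low next to the central vein and had its highest bin where Hamp had. In Tom- it was at 2.90, 2.68 and 3.14 CPM in bins 1 to 3, at 16.1 in bin 6 and at 12.2, 8.55 and 8.78 in bins 7 to 9. In Tom+ it was at 2.39, 3.45 and 5.35 in bins 1 to 3, at 17.2 in bin 6 and at 13.3, 13.4 and 7.14 in bins 7 to 9. The middle bins exceeded the higher end by 0.34 on the log2 scale (0.24 to 0.43) in Tom-, while in Tom+ the value was 0.0068 (-0.11 to 0.12), and -0.92 with bins set inside the library. Hamp2 showed no second maximum in bin 1, unlike Hamp. For each 100 Hamp UMIs there were 3.11 Hamp2 UMIs in bin 1 and 8.52 in bin 6 of Tom-, and 1.87 and 10.7 in Tom+. The pericentral over periportal log2 ratio was -1.74 in Tom- and -1.68 in Tom+. Hamp2 was under 10 CPM over all hepatocytes and is left out of the counts of genes called.

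Bmp6, the sinusoidal ligand that drives hepcidin, was at a higher level in endothelial-like cells than in any other named class, though the intervals of the small cholangiocyte-like class, 10.8 (6.60 to 16.7) in Tom- and 13.3 (6.62 to 23.7) in Tom+, reached near or past theirs. The gene lies at 38345107 to 38500302 on the plus strand of chromosome 13 (GRCm38). Endothelial-like cells, 2 clusters in which 13 and 15 of the 15 endothelial markers were at least 4-fold above the median cluster, made up 8.77% of Tom- and 7.78% of Tom+ cells. They held 43.8% of 2847 Bmp6 UMIs in Tom- and 44.8% of 1693 in Tom+, while hepatocytes held 18.9% and 23.4% and the remaining clusters the rest. Their level was 18.3 CPM (17.3 to 19.3) in Tom-, against 1.39 (1.28 to 1.51) in hepatocytes, a log2 ratio of 3.71 (3.57 to 3.86) or 13.1-fold. In Tom+ the levels were 16.3 (15.1 to 17.5) and 1.00 (0.908 to 1.11), a log2 ratio of 4.02 (3.84 to 4.20) or 16.2-fold. As a mean over cells the log2 ratios were 4.51 and 5.04. Endothelial-like cells carried albumin at 123970 CPM in Tom- and 118951 in Tom+, against 118003 and 108058 in hepatocytes. Their median depths were 36552 and 43423 UMIs, against 32281 and 35269. The class thus holds mixed profiles, and its levels, shares and ratios are not those of pure endothelial cells. Of 7947 genes with enough counts in either class, 3.25% passed 2-fold in both libraries, but Bmp6 entered that set only through its level in endothelial-like cells, so nothing is read from its place in it. Members were left out of the genes used for clustering.

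The smaller of the endothelial-like clusters had the highest Bmp6 level of all clusters. It was 62.5 CPM (55.9 to 69.7) in 427 Tom- cells and 81.5 (68.7 to 95.9) in 155 Tom+ cells, with the 15 endothelial markers summing to 4268 and 4684. The larger cluster was at 14.6 and 13.7, with marker sums of 933 and 891. Cells of the smaller cluster had medians of 10374 and 7193 UMIs, those of the larger 44826 and 48990. Hamp was at 59.6 and 56.2 in the smaller cluster, below its level in hepatocytes, and at 122 and 106 in the larger. Albumin was not lower there, at 133468 and 133482 in the smaller cluster and 123188 and 118374 in the larger. In hepatocytes it was at 118003 and 108058. The part of hepatocyte RNA in each cluster was not tested. In both clusters Bmp6 stood at a like proportion to the markers, between 14.6 and 17.4 Bmp6 UMIs for 1000 marker UMIs.

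In hepatocytes and stellate and fibroblast-like cells the proportion was somewhat lower. In Tom-, Bmp6 stood at 13.5 UMIs for 1000 endothelial marker UMIs in hepatocytes (12.4 to 14.7), at 13.8 in stellate and fibroblast-like cells (12.2 to 15.7) and at 15.4 in endothelial-like cells (14.5 to 16.3). In Tom+ hepatocytes it stood at 12.3 (11.1 to 13.5) and in endothelial-like cells at 15.7 (14.6 to 16.9), so there the intervals were apart. In Tom+ stellate and fibroblast-like cells it was 12.4 (10.6 to 14.4). Cholangiocyte-like cells lay above these classes in both libraries, at 48.2 (29.4 to 74.4) in 53 Tom- cells and 66.7 (33.3 to 119) in 19 Tom+ cells, on 20 and 11 Bmp6 UMIs. An unnamed cluster led by Marco, Cd163 and Cd5l, macrophage genes, was at 16.4 (11.7 to 22.4) in Tom- and 24.0 (14.7 to 37.1) in Tom+, on 39 and 20. An unnamed cluster of 53 cells led by Msln, Wt1 and Upk3b, genes known from mesothelium, was at 27.4 CPM on 32 UMIs. Another unnamed cluster, led by the cell cycle genes Hmmr, Ckap2 and Ube2c and with 13 of the 15 endothelial markers past 4-fold, was at 23.5 CPM on 75 UMIs in 90 Tom- cells and at 14.3 on 47 UMIs in 80 Tom+ cells. It was not counted as endothelial-like because no endothelial marker was among its 10 leading genes.

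Along the endothelial content of all kept cells, Bmp6 climbed steeply at the upper end. In decile 1, the lowest, of Tom- cells it was at 0.698 CPM, in decile 5 at 1.44, in decile 9 at 8.34 and in decile 10 at 24.8. In Tom+ the same deciles held 0.813, 0.881, 5.99 and 17.5. The highest decile exceeded the lowest by 5.15 on the log2 scale in Tom- and by 4.43 in Tom+. Those log2 differences were 1.71 and 1.42 when cells were ordered by Kupffer content, 1.83 and 1.79 by stellate and fibroblast content, and -0.56 and -0.69 by hepatocyte marker content. By hepatocyte content the fall lay between deciles 1 and 2. Deciles 1, 2 and 10 were at 6.36, 3.77 and 4.32 CPM in Tom-, and at 4.53, 2.53 and 2.80 in Tom+. In Tom+ Bmp6 rose again to 4.03 (3.55 to 4.57) in decile 8, an interval that overlapped that of decile 1 (3.85 to 5.28). Albumin, a hepatocyte marker, was itself lower in pericentral than in periportal bins, at 90062 and 127724 in Tom-. The part of zone in the order by hepatocyte content was not tested. The genes most like Bmp6 over the 19 clusters were Plcb4, Timp3, Atp2b4, Cracr2b and Mapk12, with Pearson r from 0.972 to 0.982 on log2 levels. The clusters share both libraries.

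**Figure D2:**
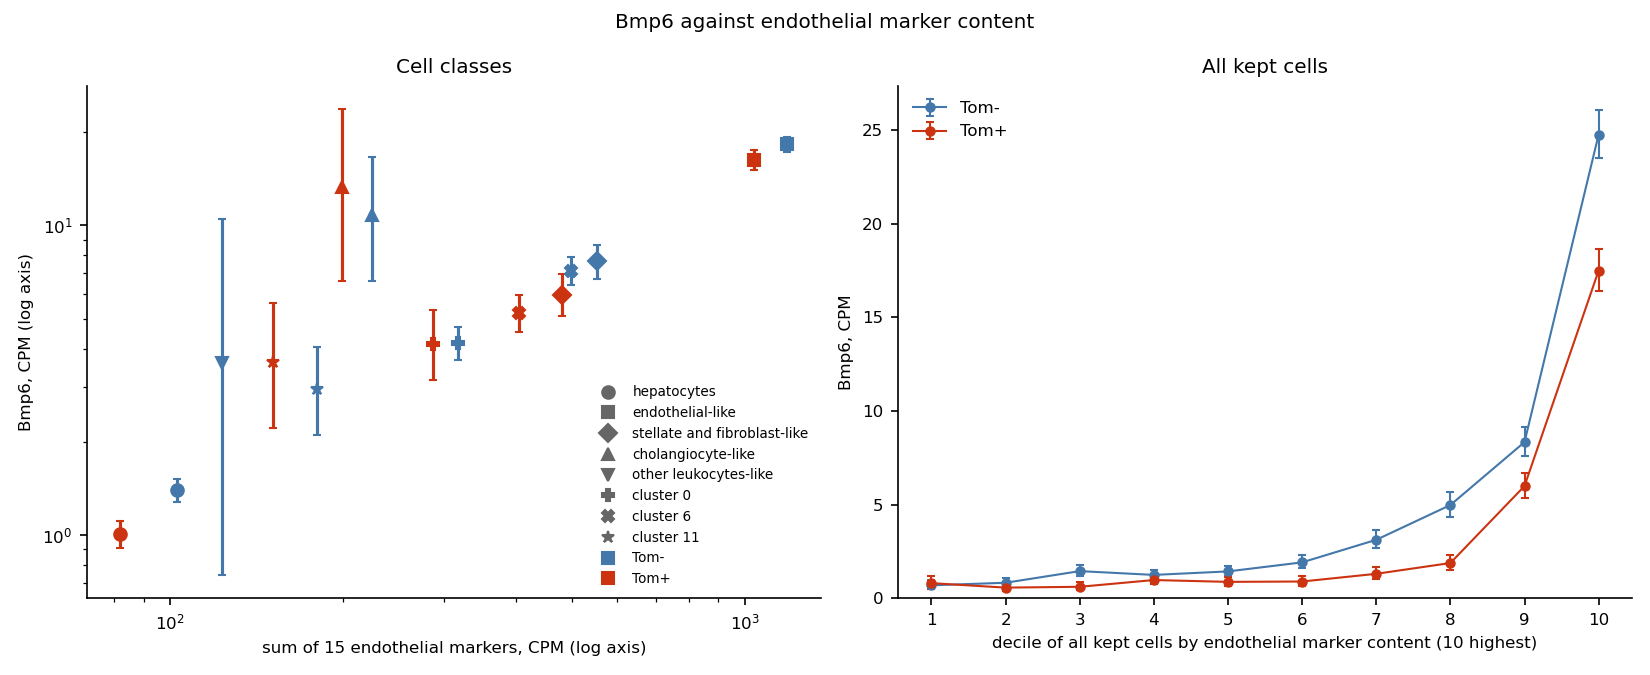
Left, Bmp6 against the summed level of 15 endothelial markers in 8 cell classes of each library (both in CPM, log axes), with exact Poisson 95% intervals; the class and library at 0 Bmp6 UMIs is left out. Right, Bmp6 in CPM (axis from 0) by decile of endothelial marker content over all kept cells, reaching 24.8 in Tom- and 17.5 in Tom+. Most classes lie along a line, with cholangiocyte-like cells above it.

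Bmp2, the other endothelial BMP ligand, was named outside the rule for naming genes and after its values were seen. It was 10.2-fold higher in endothelial-like cells than in hepatocytes in Tom- and 11.2-fold higher in Tom+, at 65.0 and 58.6 CPM in the former.

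Among the iron sensors, Tfr2, a transferrin receptor of hepatocytes, came nearest to the mid-lobular order after Hamp. In Tom- it was at 676 CPM in bin 1, 806 in bin 5 and 716 in bin 9, and in Tom+ at 658, 803 and 708. The middle bins exceeded the higher end by 0.11 on the log2 scale (0.097 to 0.13) in Tom- and 0.13 (0.12 to 0.15) in Tom+, number 46 of 7832. Hfe, the membrane protein that partners transferrin receptors, was at 71.0 in bin 1 and 57.2 in bin 9 of Tom-, and at 67.4 and 54.8 in Tom+. Its pericentral over periportal log2 ratio was 0.17 and 0.18, below 1.25-fold. Tfrc, the receptor that takes up transferrin iron, was between 10.3 and 12.6 in Tom- and between 11.7 and 14.0 in Tom+, lowest in bin 5 of both. Its middle bins stood below the higher end, at -0.19 (-0.29 to -0.099) and -0.15 (-0.26 to -0.039) on the log2 scale. In the endothelial-like cells Tfr2 was at 721 and 715, and in hepatocytes at 762 and 736, so the classes did not separate it.

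Id1 and Smad7 are direct BMP-SMAD targets, Id1 a transcriptional inhibitor and Smad7 an inhibitor of the pathway itself. Along the score Id1, like Hamp, had a trough in bin 3 between higher levels in bins 1 and 6. In Tom- it was at 18.2 CPM in bin 1, 10.6 in bin 3 and 18.3 in bin 6, and in Tom+ at 22.4, 11.9 and 18.2. Pearson r with Hamp over the 9 bins was 0.742 in Tom- and 0.699 in Tom+, against 0.810 and 0.250 for Hamp2. The middle ratio of Id1 was nevertheless below 0, at -0.12 (-0.20 to -0.037) in Tom- and -0.19 (-0.27 to -0.10) in Tom+, and its highest bin in Tom+ was bin 1. The sign of that ratio depended on the processing. It was 0.16 in Tom- with bins set in each library. At low non-hepatocyte content it was 0.057 in Tom- and 0.0055 in Tom+, with intervals that held 0. Bins share library and depth, and no p is given. Smad7 was highest in bin 1, at 22.9 and 24.3, and between 14.7 and 19.4 elsewhere. The endothelial marker sum stayed between 88.5 and 108 across the bins of Tom- and between 69.4 and 93.2 across those of Tom+, lowest in bin 1 of each.

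Outside hepatocytes, Id1 was at 60.2 and 48.3 CPM in the smaller endothelial-like cluster, and at 60.0 and 62.7 in cholangiocyte-like cells, 3.99-fold and 4.01-fold above hepatocytes. The unnamed cluster led by Msln held 115. Smad7 was at 39.0 and 36.5 in the smaller endothelial-like cluster, against 17.8 and 18.4 in hepatocytes. Between the highest and lowest decile of endothelial content over all cells Id1 differed by 0.91 on the log2 scale in Tom- and 0.57 in Tom+. The part of such RNA in the shape of Id1 along the score was not tested.

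Slc40a1, the iron exporter that hepcidin acts on, was higher toward the portal end and highest in an unnamed cluster with Kupffer markers. In Tom- hepatocytes it was at 114 CPM in bin 1 and 150 in bin 9, and in Tom+ at 123 and 143. The pericentral over periportal log2 ratio was -0.34 (-0.38 to -0.30) in Tom- and -0.24 (-0.27 to -0.20) in Tom+. The Kupffer marker sum was at 229 in bin 1, 297 in bin 4 and 166 in bin 9 of Tom-, and at 172, 262 and 128 in Tom+. The part of Kupffer RNA in the Slc40a1 values along the score was not tested. Of the tested genes, 7.1% were at least 1.25-fold higher at the periportal end in both libraries, and of the 8 members 0 were.

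In an unnamed cluster with all 11 Kupffer markers at least 4-fold up but led by other immune genes, Slc40a1 was at 337 CPM in Tom- and 282 in Tom+. These were 2.51-fold and 2.20-fold above hepatocytes. Stellate and fibroblast-like cells were at 208 and 178, and the cluster led by Marco, Cd163 and Cd5l at 174 and 156. Between the deciles of cells with the most and the fewest Kupffer markers it differed by 1.51 on the log2 scale in Tom- and 1.15 in Tom+, the widest such gap of any member but Bmp6. Trf, transferrin, the iron carrier of plasma, was at 21259 in bin 3 and 16815 in bin 7 of Tom-, its highest and lowest bins. In Tom+ the extremes were 21421 in bin 4 and 17389 in bin 7. Its level in endothelial-like cells, 18665 and 19626, was within 1.01-fold of that in hepatocytes.

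Between Tom+ and Tom- hepatocytes, 0 of the 8 members measured at 10 CPM or more differed by 1.25-fold, against 9.33% of the 7832 genes measured (7.12% higher in Tom+ and 2.21% lower). Hamp was at 122 CPM (121 to 124) in Tom- and 108 (107 to 109) in Tom+, a log2 ratio of -0.19 (-0.20 to -0.17). Tfrc was at 11.3 and 12.8, a log2 ratio of 0.18 (0.12 to 0.23). The other members above the limit lay between -0.064 for Slc40a1 and 0.073 for Trf. The median log2 ratio was 0.018 over the 8 members and 0.035 over all genes measured. Of the pair below the limit, Hamp2 was at 9.49 in Tom- and 7.86 in Tom+, a log2 ratio of -0.27 (-0.34 to -0.20). Bmp6 was at 1.39 and 1.00, a log2 ratio of -0.47 (-0.66 to -0.28), on 537 and 396 UMIs. The endothelial marker sum was lower in the same direction, 103 against 81.9. In cells below the median of non-hepatocyte content (chosen after seeing the data) the log2 ratio of Bmp6 was -0.27. Averaged over the score bins it was -0.18 in those cells. The part of endothelial RNA in the Bmp6 value was not tested.

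The libraries differ in zone, since 49.1% of Tom+ but 18.8% of Tom- hepatocytes lay in the pericentral bins 1 to 3. Averaged over the bins, 0 of 8 members passed 1.25-fold, against 2.25% of genes (1.88% higher and 0.37% lower). The mean log2 ratio was then -0.061 (-0.083 to -0.039) for Hamp, 0.21 (0.11 to 0.30) for Hamp2, 0.20 (0.13 to 0.26) for Tfrc and -0.37 (-0.58 to -0.16) for Bmp6. Hamp2 thus stood lower in Tom+ over all cells and higher at matched score, but the matched value was -0.089 (-0.19 to 0.011) without the clusters of mostly Tom+ cells described below and -0.40 with bins set in each library. For Hamp the mean hides opposite values. Tom+ was higher in bins 1 to 3, with log2 ratios of 0.45, 0.18 and 0.36, the interval of bin 4 held 0, and Tom+ was lower in bins 5 to 9, with -0.057, -0.24, -0.46, -0.41 and -0.43. Genes of the score itself still differed when averaged over the bins. Among the pericentral ones Glul was at 0.55 (0.50 to 0.59) and Cyp2e1 at 0.12. Of the periportal ones Sds was at -0.18 and Cyp2f2 at -0.026 (-0.059 to 0.0064). The part of zone within bins in the member values was not tested.

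**Figure D3:**
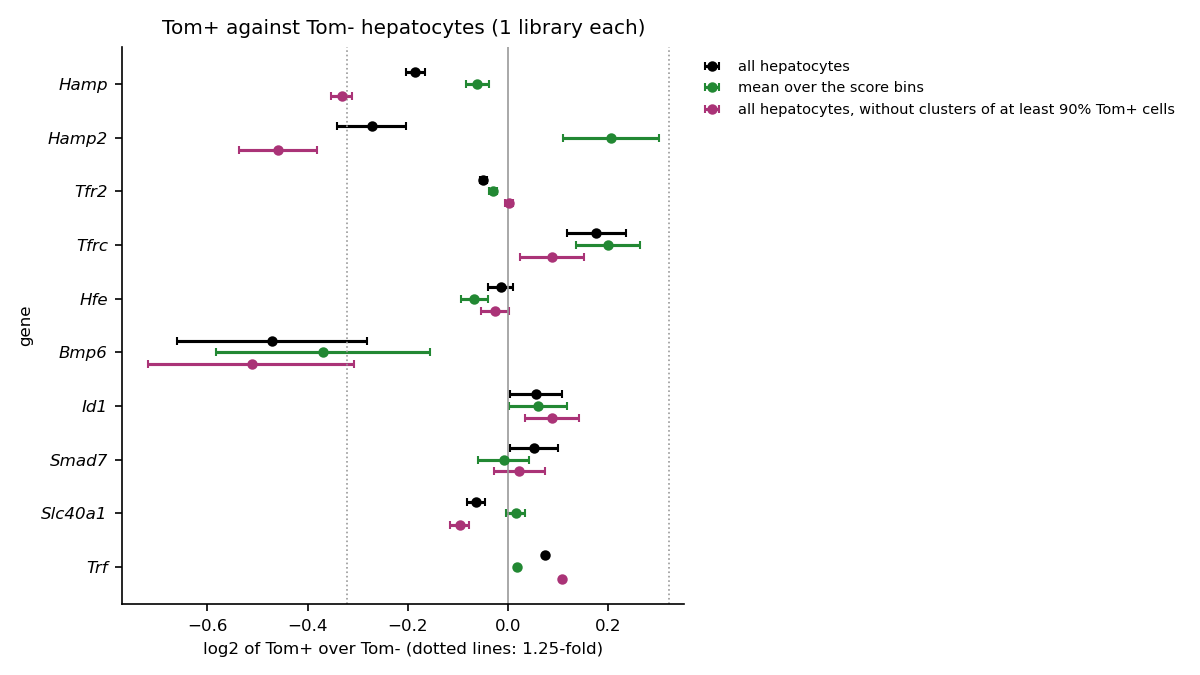
Log2 ratio of Tom+ over Tom- hepatocytes for the 10 members over all hepatocytes (black), averaged over the 9 score bins (green), and over all hepatocytes without clusters of at least 90% Tom+ cells (purple). Bars are 95% counting intervals and dotted lines mark 1.25-fold. Hamp crosses the lower line, at -0.33, only among the purple points, and Hamp2 lies on opposite sides of 0 in black and green.

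A set of Tom+ hepatocytes stood apart. When hepatocytes alone were clustered again, 3 clusters of at least 90% Tom+ cells held 2005 of the 9920 Tom+ hepatocytes, and Dbp, a transcription factor under the circadian clock, was at 67.2 CPM in them against 11.3 in other Tom+ hepatocytes. The largest, of 36 Tom- and 1500 Tom+ cells, was led by Slc1a2, H2-Q1 and Glul and had Dbp among its 10 leading genes. The next, of 38 and 484, was led by Eci3, Cyp2f2 and Orm3 and also had Dbp there. The last, of 0 and 21, was led by Nupr1, Derl3 and Rsad2, without Dbp there. Over the 3 clusters Hamp was at 149 in Tom+ cells, and at 97.3 in other Tom+ hepatocytes, a log2 ratio of 0.61 (0.58 to 0.65). Hamp2 was higher by 0.75 (0.64 to 0.86) and Tfrc by 0.42 (0.33 to 0.51), and Tfr2 was at -0.28 (-0.29 to -0.26). The reporter tdTomato was at 753 in the set, against 828 in other Tom+ hepatocytes. No label ties a cell to a mouse, so whether the set comes from certain animals or times of day was not tested. The paper describes a zone 3 cluster enriched in Tom+ cells and proposes that such hepatocytes may be senescent. Whether the largest cluster here holds the same cells was not tested either. With these clusters left out of both libraries, Hamp was at 122 in Tom- and 97.3 in Tom+, a log2 ratio of -0.33 (-0.35 to -0.31) or 0.795-fold. Then 1 of the 8 members passed 1.25-fold, against 7.18% of 7795 genes in either direction and 2.23% lower. At matched score that value was -0.23 (-0.25 to -0.20).

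The bin 1 level of Hamp in Tom+ was nearly as high without these cells. Bin 1 of Tom+ was at 125 (122 to 129), against 93.3 (88.5 to 98.4) in Tom-. In bins 2 and 3 of Tom+ the values without them were 76.6 and 61.9, now below the 88.7 and 64.8 of Tom-.

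**Figure D4:**
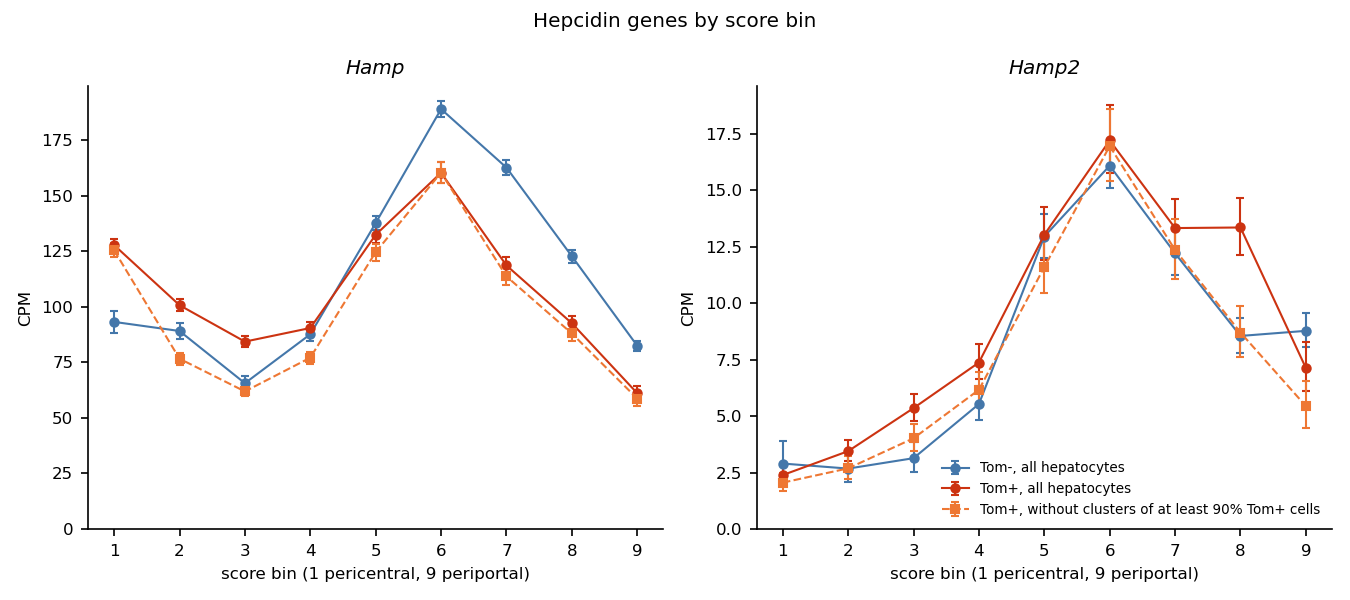
Hamp and Hamp2 in CPM (axes from 0) over the 9 score bins for Tom- (blue), Tom+ (red) and Tom+ without clusters of at least 90% Tom+ cells (orange, dashed), with exact Poisson 95% intervals. Without those clusters Tom+ stays at 125 in bin 1 for Hamp, above Tom-, and lies below Tom- in the remaining bins.

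Of the other genes of iron handling and BMP signalling, 54 were listed, 53 were matched (Ftl1 was not analysed here) and 38 were measured above the limit. Between Tom+ and Tom- hepatocytes 3 of the 38 passed 1.25-fold, a share near the 9.33% of all genes. Smad1, a SMAD activated by BMP receptors, was 0.45 higher on the log2 scale in Tom+ (9.91 and 13.6 CPM, so that it met the limit of 10 only in Tom+), Slc25a37, the mitochondrial iron importer, 0.53 higher, and Hpx, the heme carrier hemopexin, fell by 0.41. At matched score 0 of 38 passed, against 2.25% of all genes. The median over the 38 was 0.030.

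Along the score 8 of the 38 were at least 1.25-fold higher at the pericentral end in both libraries, where 17% of genes were, and 1 was lower, where 7.1% were. Id3, a BMP target like Id1, was higher there by 0.55 in Tom- and 0.82 in Tom+ on the log2 scale. Steap4, a metal reductase, was higher by 0.77 and 0.81, Slc48a1, a heme transporter, by 0.71 and 0.82, and Slc25a37 by 0.98 and 1.12. Hpx was at -0.83 and -0.97, periportal in both. Below the limit, Bmp7, a BMP ligand, was at 2.34 and 2.23 on the same scale, Smad6, an inhibitory SMAD, at 1.36 and 1.49, and Socs3, an inhibitor of the STAT3 arm, at 1.80 and 1.89. The ligands Bmp5 (0.67 and 0.75) and Gdf2 (0.82 and 0.71) and the BMP target Id4 (0.64 and 1.06) were on the same side, Heph, a ferroxidase, was at 0.13 and 0.33 on 65 and 49 UMIs, and Bmp4, a further ligand, was on the periportal side at -1.31 and -1.48. Among genes below the limit, which the counts leave out, Socs3 was at 2.17 CPM in Tom- and 4.35 in Tom+, a Tom+ over Tom- log2 ratio of 1.00 (0.88 to 1.12), and 0.45 (0.31 to 0.59) at matched score. Bmp7 was at 0.86 (0.78 to 0.94), and 0.18 (0.082 to 0.28) at matched score, Smad6 at 0.65 (0.45 to 0.85) and 0.25 (0.021 to 0.48), and Bmp4 at -0.41 (-0.56 to -0.27) and -0.093 (-0.26 to 0.073). Bmp10, a BMP ligand, was at -0.38 (-0.76 to -0.00095) on 136 and 107 UMIs, Heph at -0.44 on 65 and 49 UMIs with an interval that held 0, and Erfe, the hepcidin suppressor erythroferrone, at 1.55 (0.16 to 3.18) on 6 and 18 UMIs. In the middle bins 0 of the 38 passed 1.25-fold over both ends, against 0.14% of all genes.

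**Figure D5:**
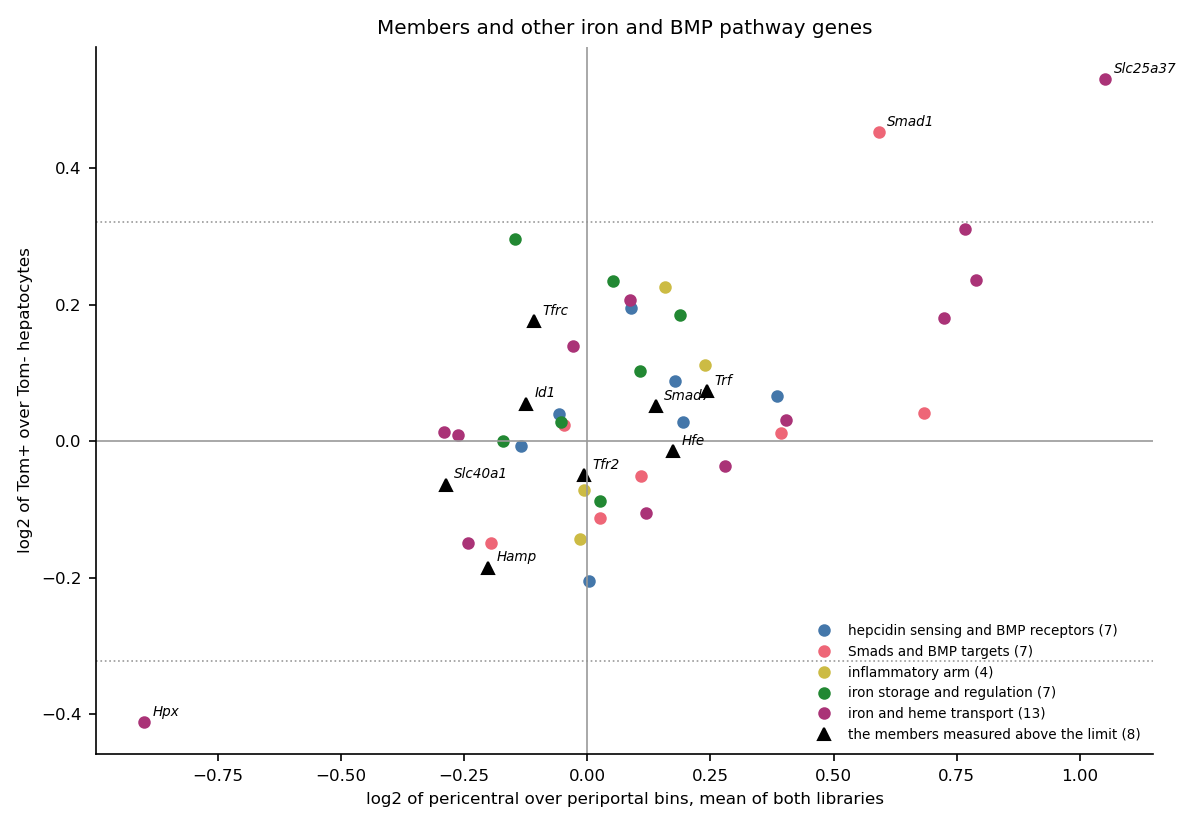
Log2 ratio of Tom+ over Tom- hepatocytes (y axis) against the pericentral over periportal log2 ratio averaged over both libraries (x axis) for 38 other pathway genes by group (circles) and the 8 members measured above the limit (triangles); dotted lines mark 1.25-fold. Slc25a37, at 0.53, and Smad1, at 0.45, lie above the upper line on the pericentral side, and Hpx, at -0.41, below the lower line on the periportal side.

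Few other genes shared the order of Hamp along the score. Among 926 genes at 20 CPM or more with a 1.5-fold range in both libraries, the most alike was Pemt, an enzyme of phosphatidylcholine synthesis, with Pearson r of 0.837 in Tom- and 0.808 in Tom+ over 9 bins. The next were the metallothionein Mt1 (0.426 and 0.448), the chemokine Cxcl1 (0.877 and 0.390), Prtn3 (0.644 and 0.374) and Mt2 (0.492 and 0.363), each far less alike in at least 1 library.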

How the data were processed

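Fixed cells were hybridised with 10x Flex probe pairs and counted with Cell Ranger 7.2.0 on mm10, per the labels. The deposited values are raw UMI counts per feature and barcode, not normalized by the authors. Kept cells had 2000 to 10000 genes, at most 100000 UMIs and a mitochondrial fraction of at most 0.05, the limits of the study's methods. Cells were clustered with scanpy 1.11.5 (2000 variable genes without the members, scaled, 30 components, 20 neighbours, Leiden resolution 0.8). Clusters were left out of the hepatocytes when their median gene number was below 0.75 of the overall median, when Ptprc, Dcn or Pecam1 reached 2.5 times the median cluster, or when at least 3 markers of another cell type were 4-fold up or among the top 10 genes. These limits, but not the marker lists, were set after the clusters were seen. Scrublet called 1 and 0 doublets, so it did not work here and no doublets were removed. The alternative without the highest doublet scores rests on the same tool, so it cannot show what doublets do to the values.

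Levels are CPM of summed UMIs. Intervals are exact Poisson for levels, exact conditional (Clopper-Pearson) for ratios and shares, and a normal approximation for the mean over bins. Genes entered counts at 10 CPM in either library and 20 UMIs over both. The formulas of the ratio and the mid-lobular contrast were run on simulated Poisson counts with known changes. Those counts hold no spread between cells or mice, so the run checks the arithmetic alone. All members were named. Other pathway genes were named past 1.25-fold between the libraries or 2-fold between the highest and lowest bin. The 5 genes most like Hamp and Bmp6 were named by Pearson r. The members and gene lists were chosen with earlier results of these data known. Alternatives varied cell filters, scaling, score, bins, clustering and depth.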

Additional observations from a re-analysis of the deposited data

Results flagged for a closer look

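Hamp was ordered differently between the lobule ends in the libraries. The pericentral over periportal log2 ratio was -0.57 in Tom- and 0.17 in Tom+, a difference of 0.74, and the 95% counting intervals lay on opposite sides of 0. Over the alternatives it ran from -0.68 to -0.27 in Tom- and from 0.012 to 0.24 in Tom+, the lowest Tom+ value being that without clusters of at least 90% Tom+ cells. Trf in the middle bins over the higher end was at -0.083 in Tom- and 0.022 in Tom+, a difference of 0.10. The Tom+ value turned negative in 4 alternatives. Each library is a single sample, so neither difference was tested.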

How the results depend on the processing

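No paired analysis was possible because Tom- and Tom+ are 1 library each. Values below are log2 ratios, and the cause of a change was not tested. The middle ratio of Hamp (0.28 in Tom-, 0.21 in Tom+) turned to -0.29 in Tom+ with bins set in each library and was 0.72 in Tom-. It was 0.10 and 0.30 with clusters of few genes kept, 0.38 and 0.48 without clusters of at least 90% Tom+ cells, 0.34 and 0.28 at 20000 to 50000 UMIs, and 0.62 and 0.47 in cells below the median of non-hepatocyte content (chosen after seeing the data). In Tom- alone it moved to 0.19 with a score of 4 markers and 0.44 without the highest doublet scores, and in Tom+ alone to 0.28 with the 20 most abundant genes out of the total. The endothelial excess of Bmp6 was 3.87 in Tom- from 1000 genes, 4.51 and 5.04 as a mean over cells, and 3.98 and 4.28 without the highest doublet scores.

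Hamp in Tom+ over Tom- (-0.19) was -0.15 as a mean over cells, -0.21 without the 20 most abundant genes, -0.22 with median-of-ratios scaling, -0.14 at 20000 to 50000 UMIs, -0.27 at low non-hepatocyte content and -0.33 without clusters of at least 90% Tom+ cells. At matched score (-0.061) it was -0.12, -0.084, -0.15 and -0.23 with bins set in each library, without the highest doublet scores, at low non-hepatocyte content and without those clusters. The count of members past 1.25-fold was 1 (Hamp) without those clusters, against 7.18% of genes. It was 1 (Bmp6) with no minimum level, and otherwise 0. The share of all genes with no minimum level is not given here, so nothing is read from that count.

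Of the single members, 20 values reversed. Tom+ over Tom- as a mean over cells was -0.0032 for Id1 (-0.029 at matched score). Without clusters of at least 90% Tom+ cells, Tfr2 was at 0.0012 (0.011 at matched score, and 0.016 pericentral over periportal in Tom+), Hamp2 at matched score at -0.089 and the middle ratio of Trf in Tom+ at -0.017. With bins set in each library, Hamp2 at matched score was at -0.40, and middle ratios were 0.16 for Id1 and 0.012 for Smad7 in Tom- and 0.012 for Tfrc in Tom+. With clusters of few genes kept they were 0.37 for Bmp6 and 0.036 for Smad7 in Tom-, and 0.0084 for Id1 and -0.014 for Trf in Tom+. At low non-hepatocyte content they were 0.057 for Id1 in Tom-, and 0.0055 for Id1 and -0.062 for Trf in Tom+. The middle ratio of Hfe in Tom+ was 0.025 without the 20 most abundant genes, and that of Trf in Tom+ was -0.0066 with a score of 4 markers. Counting error limits Hamp2 and Bmp6 most.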
